A study of Mus musculus with 7 samples.

Results

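Rpl3l with Rpl3 and Eef1a2 with Eef1a1 are gene pairs in which a form made mainly in muscle stands beside a form made in nearly every cell. These 4 genes were taken by symbol from the 23337 genes of the count table, and all 4 were among the 12561 genes that passed the filter on low counts. The pairs were chosen by the share of the muscle form in the counts of each library at both ages, so the difference between ages is described below for the 4 genes and is not tested.

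RNA was sequenced from sorted mouse cardiomyocytes at postnatal day 6 (P6, 4 libraries, a to d) and postnatal day 30 (P30, 3 libraries, a to c). Mice of both ages carried the genotype given as Rosa-Tom/Cas9 and received the virus AAV9-cTNT-Cre on postnatal day 1, so that Cre was made from the cardiac troponin T promoter, which restricts the label to cardiomyocytes. Hearts were perfused with collagenase and labelled cells were sorted. Time since the virus differs between the groups in step with age, and the effects of both cannot be told apart. Which allele each mouse carried, and whether each library came from a separate animal, is not given. The treatment text gives a further day of collection, P14, for libraries whose titles and ages say P6 or P30, and the ages in the titles were used.

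Ribosomal protein L3 sits near the peptidyl transferase centre of the large ribosomal subunit. In heart and skeletal muscle its paralog Rpl3l can take its place, and ribosomes with either protein are known. The elongation factor eEF1A carries aminoacyl-tRNA to the ribosome: Eef1a1 encodes the form found in most cells, and Eef1a2 the form that replaces it after birth in muscle and in neurons.

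The coding sequences of each pair are alike enough to align along nearly their whole length, and different enough to be told apart by sequencing reads. Rpl3l and Rpl3 were identical at 897 of 1209 aligned coding bases (74.2%), and Eef1a2 and Eef1a1 at 1113 of 1389 (80.1%). The starts of the 4 reading frames, 60 bases each from the start codon, are shown because they let the paralogs be compared base by base, with capitals at the positions where the members of a pair differ (13 positions for the Rpl3 pair and 11 for the eEF1A pair).
Rpl3l: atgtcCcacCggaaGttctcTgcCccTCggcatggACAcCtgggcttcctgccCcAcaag
Rpl3: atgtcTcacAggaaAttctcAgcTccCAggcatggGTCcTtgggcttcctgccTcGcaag
Eef1a2: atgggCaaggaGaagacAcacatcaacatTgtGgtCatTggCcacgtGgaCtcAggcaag
Eef1a1: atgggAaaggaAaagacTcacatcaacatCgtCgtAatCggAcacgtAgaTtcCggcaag
The longest identical stretch, bases 145 to 166 of both coding sequences, was 22 bases in the Rpl3 pair. In the eEF1A pair it was 23 bases, from base 304 to base 326. No run of 25 bases was shared within either pair, so a read of that length or longer that matches exactly has a place in only 1 gene of a pair.

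Pseudogenes are a different matter. Of the 75-base words of the Rpl3 transcript, 83.2% (1063 of 1277) also occurred in other annotated transcripts, all of them among 8 pseudogenes, and Rpl3-ps1 alone held 1003. For Eef1a1 the share was 41.7% (717 of 1720 words, in 14 genes, 13 of them pseudogenes). No such word of Rpl3l (1301 words) or Eef1a2 (2010 words) occurred elsewhere. Neither the read length nor the handling of reads with several matches is given in the sources used here. If such reads were left out of the counts, Rpl3 and Eef1a1 were counted too low at both ages. A loss of the same factor at both ages leaves the fold change of a gene as it is, but levels of the ubiquitous forms, shares and sums change with it.

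Rpl3l lies on chromosome 17 (chr17:24727820-24736143, plus strand, build GRCm38, the same as mm10), and no other annotated gene overlaps it. Its level in CPM (counts per 1000000 counts of a library, with library totals scaled by TMM factors) was 34.6 (P6a), 25.3 (P6b), 16.1 (P6c) and 14.8 (P6d) at the younger age and 214 (P30a), 211 (P30b) and 270 (P30c) at the older. Every P30 library was far above every P6 library. The mean was 22.7 ± 9.23 CPM at P6 (SD, n = 4) and 232 ± 32.8 CPM at P30 (SD, n = 3), a ratio of 10.2. The fitted log2 fold change of P30 over P6 was 3.36 (SE 0.27), the 94th largest positive change among 12561 genes. In order of CPM among the tested genes Rpl3l moved from place 5852 at P6 to place 652 at P30. Among the 4 genes it had the widest relative spread at P6.

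Rpl3, the ubiquitous partner, lies on chromosome 15 (chr15:80077791-80091868, minus strand). The annotated spans of Syngr1 and the small RNA genes Snord43, Snord83b, Gm22077 and Gm24204 overlap its span. Whether they share exons or a strand with Rpl3 was not examined. Rpl3 was at 97.2, 92.6, 114 and 121 CPM in the P6 libraries a to d and at 34.7, 37.5 and 33.1 CPM in the P30 libraries a to c. The P30 libraries lay close together, below all P6 libraries. The mean was 106 ± 13.6 CPM at P6 and 35.1 ± 2.25 CPM at P30, which is 3.02-fold lower, with a log2 fold change of -1.60 (SE 0.12).

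Eef1a2 lies on chromosome 2 (chr2:181147653-181157014, minus strand), with no overlapping gene. Its level was 78.6, 68.5, 55.3 and 52.2 CPM in the P6 libraries a to d and 171, 231 and 225 CPM in the P30 libraries a to c. The ages did not overlap, and the lowest P30 value was P30a. The mean went from 63.6 ± 12.2 to 209 ± 32.8 CPM, a 3.29-fold higher level at P30, with a log2 fold change of 1.72 (SE 0.16).

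Eef1a1 lies on chromosome 9 (chr9:78478449-78489151, minus strand), where the predicted gene Gm26377 overlaps it. Its level was 429, 391, 455 and 488 CPM in the P6 libraries a to d and 61.3, 79.0 and 57.7 CPM in the P30 libraries a to c. It was the most counted of the 4 genes at P6, in place 279 of the tested genes, and was in place 2562 at P30. The mean went from 441 ± 41.2 to 66.0 ± 11.4 CPM, 6.68-fold lower at P30, with a log2 fold change of -2.74 (SE 0.14).

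None of the 4 genes had overlapping values between ages, but that holds for 56.6% of all tested genes in these libraries (27.8% with all P30 values above and 28.8% with all below). Since the genes were chosen for this difference, nothing is read from it. The log2 fold changes in the authors' deposited table were 3.38 for Rpl3l, -1.58 for Rpl3, 1.74 for Eef1a2 and -2.72 for Eef1a1. In bulk RNA of sorted cells, fewer cells of a type and less RNA of a gene per cell cannot be told apart.

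**Figure D1:**
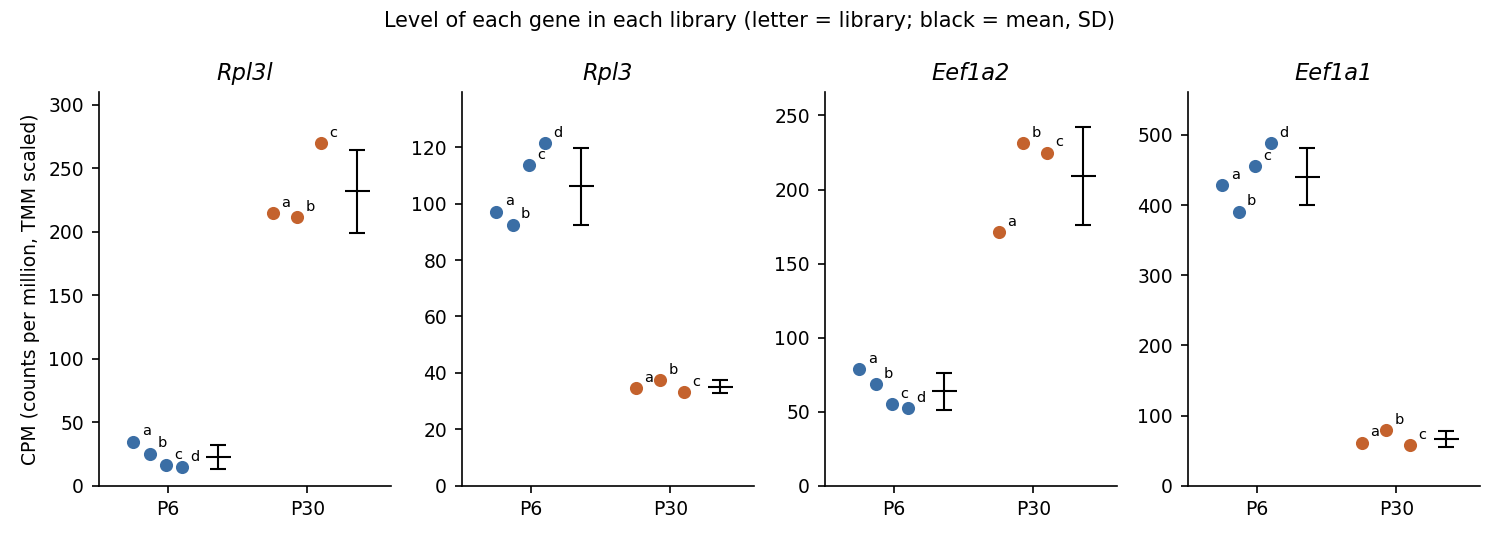
Level of each of the 4 genes in each library, in TMM-scaled CPM on linear axes that start at 0 and differ between panels; points are libraries, lettered, and black bars are mean and SD. Rpl3l and Eef1a2 are higher in all 3 P30 libraries than in any P6 library, and Rpl3 and Eef1a1 are lower.

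Per kilobase of transcript, which allows genes to be compared with each other, in the counts as deposited both muscle forms lay below both ubiquitous forms at P6 and above them at P30. At P6 Eef1a1 was highest (246 ± 23.0 CPM per kb), followed by Rpl3 (78.6 ± 10.1), Eef1a2 (30.5 ± 5.87) and Rpl3l (16.5 ± 6.72). At P30 Rpl3l was highest (168 ± 23.9 CPM per kb), followed by Eef1a2 (100.3 ± 15.8), Eef1a1 (36.8 ± 6.37) and Rpl3 (26.0 ± 1.66). The neighbours in each order differed by more than their SDs. The order at P30 turns when counts are divided by the share of 75-base words found in no other gene. Rpl3 was then at 155 ± 9.93 CPM per kb, above Eef1a2 (100.3), and close to Rpl3l (168), and Eef1a1 at 63.1 ± 10.9.

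The share of the muscle form in the counts of its pair removes library scaling. Rpl3l made up 26.3%, 21.4%, 12.4% and 10.8% of the counts of its pair in the P6 libraries a to d, with 95% Wilson intervals of 24.1 to 28.6%, 20.1 to 22.8%, 11.6 to 13.2% and 9.42 to 12.5%. In the P30 libraries a to c its share was 86.1%, 84.9% and 89.1%. In the counts as deposited, Rpl3l was the minority form in every P6 library and the majority form in every P30 library. The mean share was 17.7 ± 7.37% at P6 and 86.7 ± 2.14% at P30, and the ratio of Rpl3l to Rpl3 counts went from 0.223 ± 0.111 to 6.65 ± 1.32.

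Eef1a2 made up 15.5%, 14.9%, 10.8% and 9.66% of the counts of its pair in the P6 libraries a to d and 73.7%, 74.5% and 79.6% in the P30 libraries a to c. In the counts as deposited, the majority form changed in this pair too. The mean share was 12.7 ± 2.91% at P6 and 75.9 ± 3.19% at P30, and the count ratio of Eef1a2 to Eef1a1 went from 0.147 ± 0.0382 to 3.21 ± 0.600. Pairs were covered by 1457 to 27693 counts per library, and the 95% intervals of all 14 shares were 0.732 to 4.52 percentage points wide. These intervals cover counting error only.

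With each gene's counts divided by the share of its 75-base words found in no other annotated gene (a correction that assumes every read with several matches was dropped), Rpl3l made up 3.58% of its pair at P6 and 52.4% at P30. Its share was then 50.9%, 48.5% and 57.7% in the P30 libraries a to c, so that it was no longer the majority form in P30b. Eef1a2 made up 7.85% at P6 and 64.8% at P30, and at least 62.0% in each P30 library. Both shares stayed higher at P30, while their size, and for Rpl3l the majority at P30, depended on how reads shared with pseudogenes are treated. They also depend on the word length, since the read length is not given. Of the 50-base words, 85.6% of those of Rpl3 and 60.6% of those of Eef1a1 occurred in other genes. A correction with such words would give lower shares of both muscle forms, and was not computed.

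The P6 libraries also differed among themselves. P6a and P6b had the highest shares of both muscle forms and the lowest levels of Rpl3 and Eef1a1, and P6c and P6d the reverse. Such a split is common in its direction. Among 7780 genes with a mean of at least 10 CPM, 27.1% had both P6a and P6b above both P6c and P6d. In 23.3% of them both were below. The size of the split in Rpl3l was less common. Its ratio of P6a and P6b over P6c and P6d was 1.94, and 114 of these genes (1.47%) had a ratio at least as large. Without P6a and P6b the P6 share of Rpl3l was 11.6%, and without P6c and P6d it was 23.9%. Myh7, the slow myosin heavy chain that is high in the fetal ventricle, also set these libraries apart, with 4058 and 4205 CPM in P6a and P6b against 829 and 590 CPM in P6c and P6d. At P30 it was at 148 to 1194 CPM, a range that spans the values of P6c and P6d. Nppa, Myl7 and Sln, of the atrial markers, had ratios of P6a and P6b over P6c and P6d in the other direction (0.497, 0.667 and 0.346). The part that this difference between libraries has in the P6 values was not tested. Over the deviations of the 7 libraries from their age means, log2 CPM of Rpl3l went with Eef1a2 (r = 0.84) and against Rpl3 (r = -0.87), and Rpl3 went with Eef1a1 (r = 0.81), whereas Eef1a2 and Eef1a1 gave r = -0.14. These values describe 7 libraries that share their scaling.

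Other paralog pairs of the translation machinery were counted in the same way. The share of the form named first in each pair was higher in every P30 library in 3 of 7 such pairs, lower in 2, and overlapped between ages in 2. Eif4a2, a paralog of the initiation helicase Eif4a1, made up 34.3 ± 4.62% of its pair at P6 and 48.1 ± 3.11% at P30. For the poly(A)-binding proteins, Pabpc4 made up 35.6 ± 2.63% and 47.5 ± 1.8% of the counts of Pabpc4 and Pabpc1. The cap-binding Eif4e3 made up 27.0 ± 1.48% and 32.0 ± 0.988% beside Eif4e.

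Changes in the other direction were found in Rpl22l1, the paralog of the large subunit protein Rpl22, and in Eif5a2, the paralog of the hypusine-bearing factor Eif5a. Rpl22l1 made up 33.3 ± 2.20% of its pair at P6 and 16.7 ± 0.0569% at P30. Eif5a2 made up 2.39 ± 0.726% and 0.235 ± 0.0516%. Rpl7l1 with Rpl7 overlapped between ages, at 52.5 ± 5.99% and 56.6 ± 6.99%, and Rps27l with Rps27 overlapped too, with a barely counted Rps27 (0.361 ± 0.210 and 0.390 ± 0.209 CPM). On the scale of the log2 count ratio, these 7 pairs moved by -3.35 to 0.84, while the pair of Rpl3l moved by 5.02 and that of Eef1a2 by 4.47. As muscle isoform pairs outside translation, Tnni3 with Tnni1 (troponin I), Cox6a2 with Cox6a1 (cytochrome oxidase) and Ckm with Ckb (creatine kinase) moved by 11.67, 2.09 and 1.38. The pairs of Rpl39l and Rpl10l were left out, since these genes had 1 and 0 counts in all libraries together.

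**Figure D2:**
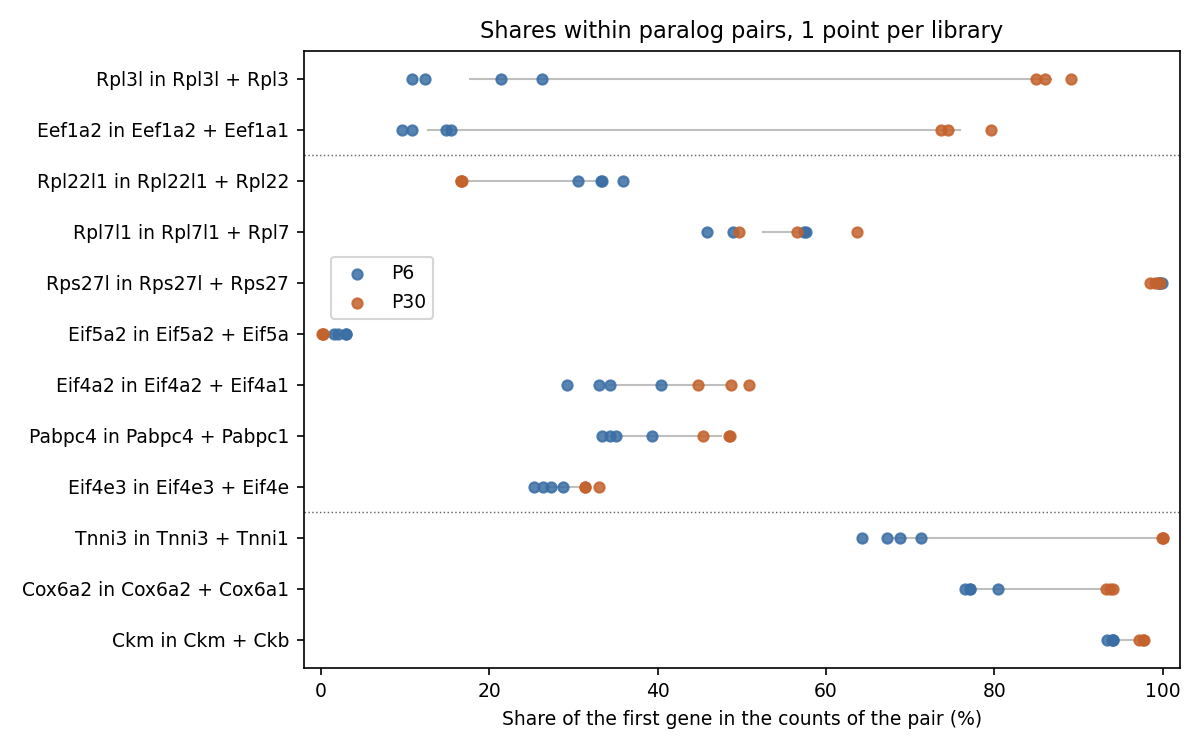
Share of the form named first in the counts of each pair, in percent, with 1 point per library (blue P6, orange P30) and a grey line between the age means. The Rpl3l and Eef1a2 shares lie at 26.3% or below at P6 and at 73.7% or above at P30, a wider gap than in any other translation pair shown.

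The summed level of each pair did not stay constant. Rpl3l and Rpl3 together were at 132, 118, 130 and 136 CPM in the P6 libraries a to d and at 249, 249 and 303 CPM in the P30 libraries a to c. The mean was 129 ± 7.84 CPM at P6 and 267 ± 31.0 CPM at P30, a ratio of 2.07. In contrast, Eef1a2 and Eef1a1 together were at 507, 459, 510 and 540 CPM at P6 and at 233, 310 and 283 CPM at P30. Their mean went from 504 ± 33.6 to 275 ± 39.3 CPM, 1.83-fold lower. Thus the gain of Rpl3l counts exceeded the loss of Rpl3 counts, and the gain of Eef1a2 counts did not match the loss of Eef1a1 counts.

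The direction for the Rpl3 pair rests on the counting. With the correction for shared words the Rpl3 pair summed to 656 ± 73.7 CPM at P6 and 441 ± 23.4 CPM at P30, lower at P30, and the eEF1A pair to 819 ± 62.5 and 322 ± 45.2 CPM. The sum of the eEF1A pair was therefore lower at P30 either way, whereas that of the Rpl3 pair had no direction free of this choice.

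Set against other genes of the same machinery per kilobase, Rpl3l was at 0.449 ± 0.220 times the median of 44 other large subunit genes at P6 and at 8.54 ± 0.875 times at P30. Rpl3 was at 2.05 ± 0.251 times that median and at 1.34 ± 0.268 times. In order of level among the 44 other genes, the sum of the pair was in place 9 of 45 at P6 and in place 1 at P30, and Rpl3 alone in place 10 and place 18. This too uses the counts as deposited, and many ribosomal protein genes have pseudogenes of their own. The eEF1A pair was at 1.73 ± 0.113 times the level of Eef2, the factor that moves the ribosome along the message, at P6, and at 1.02 ± 0.103 times at P30.

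**Figure D3:**
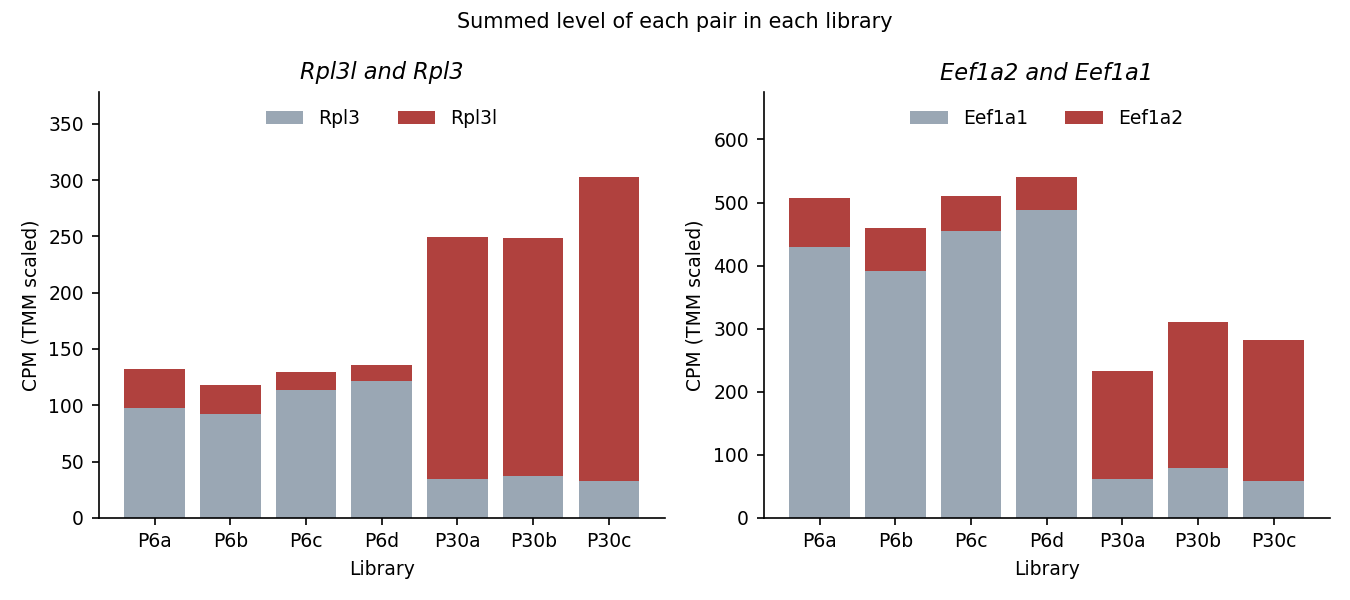
Summed TMM-scaled CPM of each pair in each library, as stacked bars from 0, with the ubiquitous form in grey and the muscle form in red. The Rpl3 pair sums to between 118 and 136 CPM at P6 and to between 249 and 303 CPM at P30, and the eEF1A pair to at least 459 CPM at P6 and at most 310 CPM at P30.

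The genes that make the rest of the ribosome did not move as Rpl3l did. In the edgeR quasi-likelihood test of all genes (Benjamini-Hochberg adjusted p under 0.05), 26.3% of 12561 genes were higher and 27.8% lower at P30 (54.1% in either direction), with a median log2 fold change of -0.02. Of 44 tested large subunit ribosomal protein genes, the pair left out, 37 fell and 0 rose, with a median log2 fold change of -0.76. No gene rose at an unadjusted p under 0.05 or by DESeq2 either, and Rplp0 was the only gene of this list with a positive value (0.10, edgeR adjusted p = 0.41). Of 31 small subunit genes 25 fell and 0 rose, with a median of -0.86, and again none rose at an unadjusted p under 0.05 or by DESeq2. The log2 fold change of Rpl3 (-1.60) lies within the range of the large subunit list, -1.82 to 0.10, but below its median of -0.76.

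Among the large subunit genes that fell, Rpl37 had the largest change, from 29.2 ± 8.45 to 8.17 ± 1.74 CPM (log2 fold change -1.82, edgeR adjusted p = 0.00022). Of the small subunit, Rps14 had a log2 fold change of -0.95 and Rps29 of -1.89 (edgeR adjusted p = 0.00061 and 0.00058). With a length trend removed, 26 large and 19 small subunit genes fell, and 1 large subunit gene rose. Rpl8 (log2 fold change -0.35) and Rps3 (-0.30) passed the test but lost it in 6 of the other settings each.

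Of 12 other elongation genes 2 rose and 4 fell, with a median log2 fold change of -0.17. The exchange factor subunits Eef1b2 (-0.29), Eef1d (-0.03) and Eef1g (0.08), which reload eEF1A with GTP, did not pass the test. Vars, the valyl-tRNA synthetase bound to that complex, rose by 0.44 (SE 0.11, edgeR adjusted p = 0.0079), a call lost with library totals (0.26). Hbs1l, a relative of eEF1A that acts on stalled ribosomes, rose by 0.68 (SE 0.10, edgeR adjusted p = 0.00036). Eef2 fell by 0.25 (SE 0.08, edgeR adjusted p = 0.021), a call lost without P6c, without P30a, without P30b, without P6c and P6d, and with a length trend removed. Eif5a2 had the largest change, from 12.1 ± 3.86 to 0.916 ± 0.201 CPM (edgeR adjusted p = 2.1e-05), while Eefsec, which delivers selenocysteine tRNA, fell by 0.59. Eif5a fell by 0.34, a call lost with a length trend removed (log2 fold change -0.14).

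Enzymes that modify eEF1A, eEF2 or L3 gave 3 genes that rose and 1 that fell among 14, with a median log2 fold change of 0.02. The eEF1A lysine methyltransferase Eef1akmt2, listed as Mettl10, fell by 0.68 (edgeR adjusted p = 0.0050). Mettl18, listed as 2810422O20Rik and known to methylate a histidine of L3, rose by 0.91 (SE 0.27, edgeR adjusted p = 0.016) at a level of 2.28 ± 0.651 CPM at P6 and 4.27 ± 0.247 CPM at P30, and is named after its value was seen. Dph1 and Dph2, which start the diphthamide modification of eEF2, rose by 0.39 and 0.67 (edgeR adjusted p = 0.026 and 0.023), and each lost the call in 6 settings. Of 26 large subunit assembly factors 4 rose and 3 fell, with a median of -0.12. Grwd1, which escorts newly made L3 to the pre-ribosome, rose by 0.42 (edgeR adjusted p = 0.010), a call lost with library totals (0.24). Eif6, which is bound to the free large subunit, fell by 0.65 (edgeR adjusted p = 0.00022).

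Ribosomal protein and eEF1A messages are known targets of translation control by mTOR and Larp1 through a terminal oligopyrimidine start. Of 16 genes of this control 7 rose and 4 fell, with a median log2 fold change of -0.11. Tsc1 and Tsc2, inhibitors of the pathway, rose by 1.29 and 0.89, and Rheb, its activator, fell from 161 ± 29.5 to 66.9 ± 8.07 CPM (edgeR adjusted p = 2.6e-05, 9.4e-05 and 0.00012). Mtor itself and Rptor and Mlst8 of the same list also rose, by 0.48, 0.72 and 0.92 (edgeR adjusted p = 0.010, 0.00038 and 0.00078). The call of Mtor was lost with library totals (0.29) and with a length trend removed (0.26). Eif4ebp1, which encodes a repressor that binds the cap-binding protein eIF4E, fell from 230 ± 18.2 to 81.7 ± 2.03 CPM (log2 fold change -1.49, edgeR adjusted p = 2.4e-06). Larp1 rose by 0.38 and Larp1b by 0.94 (edgeR adjusted p = 0.0058 and 0.00015).

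Of 38 initiation factor genes 7 rose and 10 fell, with a median of -0.05. The scaffold genes Eif4g1 and Eif4g2 rose by 0.90 and 0.39, while Eif4h fell by 0.49, Eif4a1 by 0.45 and Eif2s2 by 1.29 (edgeR adjusted p from 3.7e-05 to 0.0043). The call of Eif4g2 was lost with a length trend removed (0.18). Scaled by library totals instead, which shifted the median of all genes to -0.20, counts of falling genes were larger in several of these lists.

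**Figure D4:**
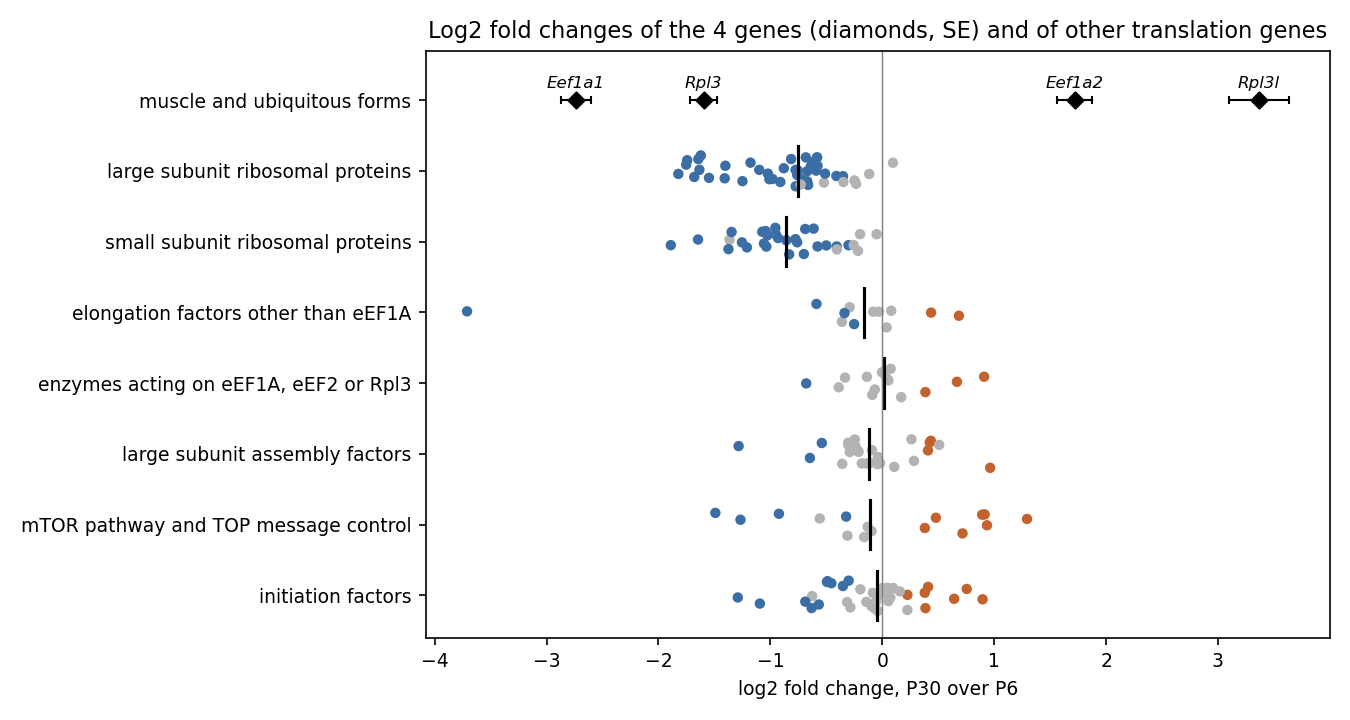
Log2 fold changes of P30 over P6 for the 4 genes (diamonds with SE) and for each tested gene of 7 lists of translation genes, with genes that rose in orange, fell in blue and did not pass the edgeR test in grey, and black bars at list medians. The 2 ribosomal protein lists have their medians at -0.76 and -0.86, the other lists between -0.17 and 0.02.

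The nearest protein-coding genes on each side of the 4 genes, overlapping genes left out, gave no common direction. Syngr1, which overlaps the span of Rpl3, is therefore not among them. Rps2, a small subunit gene 5890 bases from Rpl3l, had a log2 fold change of -0.05, and Ndufb10, 3341 bases away, of -0.07, and neither passed the test. With a length trend removed Ndufb10 turned to 0.35 and passed it (edgeR adjusted p = 0.0056). Msrb1, listed as Sepx1 and 498 bases beyond the end of Rpl3l on the same strand, rose from 17.2 ± 3.92 to 25.9 ± 1.48 CPM (edgeR adjusted p = 0.013), a call lost without P6a and P6b. On the sides of Rpl3, Cbx7 (106671 bases away) rose from 2.83 ± 1.13 to 9.67 ± 1.53 CPM (edgeR adjusted p = 0.0010). Mgat3 (81852 bases away) rose from 0.650 ± 0.686 to 2.58 ± 0.318 CPM (edgeR adjusted p = 0.026). The call of Mgat3 was lost when any of P6a, P6c or a P30 library was left out. Pdgfb and Tab1 (62813 and 41258 bases away) did not pass the test. On the sides of Eef1a2, Ppdpf (30232 bases away) fell by 0.68 (edgeR adjusted p = 0.00076). Chrna4 and Ptk6 (104106 and 36706 bases away) had too few counts to be tested. On the sides of Eef1a1, Mto1 (3100 bases away) rose by 0.54 (edgeR adjusted p = 0.0030). Slc17a5 and Cd109 (47336 and 126394 bases away) did not pass the test.

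The genes whose log2 CPM followed each of the 4 most closely over the 7 libraries, among 7780 genes with a mean of at least 10 CPM, are given as a description. For Rpl3l they were Asb10, Ndrg2, Limch1, Tcap and Pygm (Pearson r of 0.999 to 0.997), of which Tcap encodes the titin cap protein and Pygm muscle glycogen phosphorylase. For Eef1a2 they were Art4, Actr3b, Med20, Uggt1 and Cdc42bpa (r of 0.997 to 0.994). For Rpl3 they were Pdk3, Psip1, Arpc5, Rap1b and Krt18, and for Eef1a1 Reep3, Smc4, Cks1b, Ppic and Snx7, of which Smc4 and Cks1b are genes of cell division. With libraries of 2 ages, any gene with a large difference between ages reaches a high r.

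The sequence before the start sites was examined because the 4 genes moved in opposite directions. RefSeq start sites on GRCm38.p6 were matched for 3 of the 4 genes, with 2 starts for Rpl3l. The 250 bases before each start are shown 5′ to 3′ on the strand of the gene, with motif matches in capitals.
Rpl3l, chr17:24727576-24727825, plus strand: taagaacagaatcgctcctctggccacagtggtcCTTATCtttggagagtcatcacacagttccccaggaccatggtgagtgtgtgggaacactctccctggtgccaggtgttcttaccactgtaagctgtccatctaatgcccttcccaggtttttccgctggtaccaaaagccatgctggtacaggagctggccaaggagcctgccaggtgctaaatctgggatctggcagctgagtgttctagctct
Rpl3l inner start, chr17:24732435-24732684, plus strand: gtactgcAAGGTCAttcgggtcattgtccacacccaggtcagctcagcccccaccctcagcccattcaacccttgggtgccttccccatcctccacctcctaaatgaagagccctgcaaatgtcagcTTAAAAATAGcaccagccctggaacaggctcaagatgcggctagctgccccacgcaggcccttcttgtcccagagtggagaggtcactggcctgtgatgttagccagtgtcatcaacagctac
Eef1a2, chr2:181157016-181157265, minus strand: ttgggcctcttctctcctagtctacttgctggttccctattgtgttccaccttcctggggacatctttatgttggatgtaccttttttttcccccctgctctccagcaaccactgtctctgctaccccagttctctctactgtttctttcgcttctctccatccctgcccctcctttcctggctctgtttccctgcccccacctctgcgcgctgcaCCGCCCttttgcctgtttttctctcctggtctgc
Eef1a1, chr9:78481725-78481974, minus strand: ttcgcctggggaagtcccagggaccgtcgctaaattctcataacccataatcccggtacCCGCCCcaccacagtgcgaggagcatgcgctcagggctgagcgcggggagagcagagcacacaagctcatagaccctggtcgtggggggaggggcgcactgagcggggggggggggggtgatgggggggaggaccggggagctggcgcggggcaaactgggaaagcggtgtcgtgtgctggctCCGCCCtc
The window of the ubiquitous Eef1a1 is rich in GC (68%) and holds 18 CG dinucleotides. The windows of the muscle forms hold fewer, with 4 in Eef1a2 (54% GC), 2 at the outer start of Rpl3l (53.2% GC) and 3 at its inner start (56.4% GC). The window of this inner start and that of Eef1a1 lie inside the gene spans given above.

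Motifs were searched on both strands, and were chosen after the sequences had been seen. The GC box GGGCGG occurs, in its reverse complement, 2 times in the Eef1a1 window and 1 time in that of Eef1a2, and 32.7% of all 32851 promoter windows of the same length hold it. At the inner start of Rpl3l a MEF2 motif match, TTAAAAATAG, lies 123 to 114 bases before the start, and AAGGTCA, bound by estrogen-related receptors, lies 243 to 237 bases before it. All promoter windows hold these in 2.92% and 4.08% of cases. The outer start has the reverse complement of GATAAG 216 to 211 bases before it, as do 6.55% of all windows. The CArG box of serum response factor, the M-CAT motif (CATTCC), the TATA box (TATAAA) and the CCAAT box had no match in the 4 windows, and 1.47%, 12.6%, 12.4% and 33.8% of all windows hold them. A match is a stretch of letters and not a measured binding site.

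Markers of other cells were read because Rpl3l is also made in skeletal muscle and Eef1a2 in skeletal muscle and neurons. The 11 cardiomyocyte markers summed to 100288 to 118798 CPM at P6 and 135216 to 140471 CPM at P30, so the defining markers of the labelled cell type were abundant at both ages. The 11 skeletal muscle markers summed to 42.5 to 57.8 CPM at P6 and 19.4 to 26.2 CPM at P30, mostly Tnnt1 (44.7 ± 6.78 and 20.7 ± 4.02 CPM), and Myh1 was at most 0.446 CPM in any library. The 9 neuron markers summed to 7.77 to 12.9 CPM and 6.40 to 11.0 CPM, mostly Dbh (8.64 ± 2.58 and 6.19 ± 2.01 CPM). Each of Snap25, Rbfox3 and Th had at most 3 counts in any library. The part of such cells in the levels of Rpl3l and Eef1a2 was not tested.

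Some other lists did move with age. Of all 12561 tested genes, 26.3% were higher and 27.8% lower at P30. Of 8 endothelial markers 7 rose, with sums of 116 to 237 CPM at P6 and 328 to 644 CPM at P30, and of 6 tested leukocyte markers 5 rose, with sums of 2.12 to 4.73 and 12.2 to 35.5 CPM. All 8 genes of a list of immediate early and dissociation genes rose, with sums of 315 to 400 CPM at P6 and 1609 to 2673 CPM at P30. Smooth muscle markers rose in 4 of 7 genes, with sums that overlapped between ages. Of 7 tested fibroblast markers 0 rose and 1 fell, and of 4 tested atrial markers 0 rose and 1 fell. The part of these cells in the levels of the 4 genes was not tested. Libraries held 10594932 to 51427646 counts, so that 3 counts are 0.0553 to 0.271 CPM, and the smallest count of any of the 4 genes was 175, for Rpl3l in P6d.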

How the data were processed

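RNA of sorted cardiomyocytes was sequenced in 4 P6 and 3 P30 libraries. The values are raw read counts for each gene as the authors deposited them, and per the submitters' processing notes CASAVA 1.8, STAR 2.5.3a, featureCounts of Subread 1.5.2 and DESeq2 were used with mm10. For strand setting, annotation, read length and reads with several matches, the processing is not given in the sources used here. A second deposited table gives the authors' own log2 fold changes with standard errors.

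From the counts, edgeR 4.0.16 in R 4.3.3 gave TMM-scaled CPM and, after filterByExpr by age, a quasi-likelihood fit of age over 12561 genes, with a Benjamini-Hochberg threshold of 0.05. The procedure was tested on simulated data. Each column took its group from the age in its name, and 0 columns had no group. Where nothing says that libraries are separate animals, p-values measure only the spread between these libraries. Depth was 10594932 to 51427646 counts per library.

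Transcript and coding sequences and positions came from GENCODE vM21 (GRCm38, the longest protein-coding transcript of a gene), and promoters from RefSeq. Named genes are the 4 genes, all genes of the pairs, from each list the 2 most counted genes past the threshold in each direction and the largest change at a mean of at least 10 CPM, the 5 most alike in pattern to each of the 4 (log2 CPM, prior count 2), their 2 neighbours on each side and the most counted marker of each list; others were chosen after their values were seen. A few genes under this rule are not reported here. The 4 genes, the pairs and the lists were chosen with earlier results of these data known. Alternatives were DESeq2 1.42.0, median-of-ratios factors, library totals, no filter, removal of a length trend, shares from pooled counts or per kilobase, and leaving out each library. Leaving out P6a with P6b or P6c with P6d, and scaling by unique words, were added after seeing the data.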

Additional observations from a re-analysis of the deposited data

Results flagged for a closer look

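In 4 of the 103 sets of 4 P6 values examined, 1 library lay apart from the other 3 by more of the whole range than Dixon's critical value at 95%. Chance gives about 1 in 20 such cases. None of the 4 was a value of Rpl3l, Rpl3, Eef1a2 or Eef1a1. Eif4e, the cap-binding protein, was at 98.5 CPM in P6b against 114 to 117 CPM in the other P6 libraries. Eif4g1, the scaffold of the cap-binding complex, was at 305 CPM in P6b against 233 to 245.5 CPM. The share of Cox6a2 in its pair was 80.5% in P6a against 76.5 to 77.1%. The share of Ckm in its pair was 93.4% in P6b against 93.96 to 94.1%.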

How the results depend on the processing

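All alternatives kept the sign of the 4 genes and of their shares. The log2 fold change of Rpl3l was 3.88 without P6a and P6b and 2.98 without P6c and P6d, and that of Rpl3 was -1.77 with library totals, -1.37 with a length trend removed, -1.76 without P6a and P6b and -1.41 without P6c and P6d. With counts scaled by unique words the shares of Rpl3l were 3.58% at P6 and 52.4% at P30 and those of Eef1a2 7.85% and 64.8%. The summed Rpl3 pair, 1.05 on the log2 scale, became 0.87 with library totals and reversed to -0.57 with that scaling, since it raises Rpl3 alone. The summed eEF1A pair, -0.87, became -1.05 and -1.35.

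With library totals, 1 elongation gene rose and 7 fell, 1 enzyme rose and 4 fell, 1 assembly factor rose and 15 fell, and 19 initiation factors fell. Removing a length trend left 2 falling elongation genes and 1 rising large subunit gene, and turned Ndufb10 from -0.07 to 0.35. No filter left 2 falling genes of mTOR and Larp1 control. Without P6a and P6b, 0 enzymes rose and 3 fell, and 6 assembly factors fell; the cause was not tested in any of these cases. Leaving out each library gave 1 to 3 rising and 1 to 2 falling enzymes and 2 to 5 falling genes of mTOR and Larp1 control. Of the values for single genes, 54 lost the test's threshold, 14 gained it, 1 (Ndufb10, above) passed it with its direction turned, and 1149 kept their side of it. Some of these 1149 did not pass the test and changed sign. Rpl7l1, for example, went from 0.10 to -0.07 with library totals.

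No paired analysis was possible because the column letters carry no replicate number of the labels. Counts at low levels, such as those of Rps27 (under 1 CPM), limit shares that rest on them. The median of all genes moved to -0.20 with library totals and to 0.22 with no filter. No value was had from an alternative that adds pseudogene counts, since the symbols of the 4 genes followed by -ps are not among the rows used.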
